A study of Mus musculus with 2 samples.

Results

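Classical monocytes are the short-lived blood cells that enter inflamed tissue through the chemokine receptor Ccr2 and there give rise to macrophages and to cells that present antigen. In the mouse they carry Ly6c2 on their surface, and in tumors the same cells are often called monocytic myeloid-derived suppressor cells because some of them make arginase and other products that restrain T cells. Type I interferon acts on them through a complex that holds Stat2 and Irf9, which binds a short promoter element and switches on a shared set of antiviral genes, while NF-κB drives many of their chemokine and cytokine genes. Here classical Ly6c2 monocytes were taken from CD45+ cells of MC38 tumors by a rule on UMIs, the single RNA molecules counted in each cell. A barcode had at least 1000 UMIs, at most 25% mitochondrial UMIs, at least 2 UMIs of Ly6c2 and at least 10 of Lyz2. It had fewer UMIs of C1qa, C1qb and C1qc, the macrophage complement genes, than of Ly6c2, Ccr2 and Chil3, and at most 1 UMI of the nonclassical genes Ace, Adgre4 and Treml4. It had no UMI of the lymphocyte genes Cd3d, Cd3g and Ncr1, and the neutrophil genes S100a8 and S100a9 made up under 2% of its UMIs. This gave 846 cells of 8090 in all, 281 from Control and 565 from IR.

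MC38 is a mouse colon carcinoma line, and both libraries came from tumors grown in WT mice. The Control tumors were not irradiated, and the IR tumors had received 1 dose of 20 Gy and were collected 4 days later. By the study's methods each library pooled the live CD45+ cells of 4 tumors, so there was 1 library per group. No test between groups was possible, no p-value is given, and every interval below covers counting error only, not the variation between mice or libraries. The sample records also give a narrower cell label, CD45+CD11b+Ly6Chi, and under it most cells would be monocytes. Only 6.01% of Control barcodes and 16.6% of IR barcodes met the rule, and Ly6c2 was summed to 206 CPM in the other Control cells and 627 CPM in the other IR cells, so the narrower label was not borne out by the cells.

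The monocytes held 1881072 UMIs in Control and 5469909 in IR. The median cell had 5824 UMIs and 2023 genes in Control, and 8701 UMIs and 2486 genes in IR. The IR cells were thus deeper, with a median mitochondrial share of 3.28% against 3.74% and a median ribosomal protein share of 12.5% against 14.9%. Levels are given as CPM, a gene's UMIs scaled to 1000000 UMIs summed over the monocytes of a library. Between all barcodes that passed the depth and mitochondrial limits, 6 sequences occurred in both libraries, and 1 did so among the monocytes.

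The name of the cells was checked on genes that the rule did not use. Plac8, a small cysteine-rich protein of myeloid cells, stood at 3126 CPM in Control monocytes and 2940 CPM in IR monocytes, against 155 and 697 CPM in C1q macrophages. Ms4a4c stood at 568 and 882 CPM against 55.7 and 344 CPM. Hp, which encodes haptoglobin, stood at 324 and 269 CPM against 6.23 and 21.5 CPM, and Vcan, which encodes the matrix proteoglycan versican, at 165 and 126 CPM against 13.6 and 33.5 CPM. Hp was also the gene with the largest ratio of monocytes over all other cells when the lower of both libraries' ratios was taken. All 4 genes were higher in the monocytes than in the macrophages of the same library, but they did not set the cells apart from nonclassical monocytes. There Plac8 was higher, at 4638 CPM in Control and 5030 CPM in IR, Hp was level at 305 and 270 CPM, and Ms4a4c was at 403 and 570 CPM. This is a description, because clusters and rules built on the same cells give no independent test. C1q macrophages here are cells with at least 10 C1q UMIs, 1524 in Control and 360 in IR, and nonclassical monocytes are cells with at least 3 UMIs of Ace, Adgre4 and Treml4, 56 and 111.

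The genes that chose the cells are a description too. Ly6c2 was at 1765 CPM in Control (95% Poisson interval 1706 to 1827) and 2102 CPM in IR (2064 to 2141). Ccr2, the receptor for Ccl2 and Ccl7, was at 755 CPM in Control (717 to 796) and 481 CPM in IR (463 to 500). Chil3, a chitinase-like protein secreted by myeloid cells, was at 789 CPM (750 to 831) and 644 CPM (623 to 666). Just inside the limit, 28 Control and 37 IR cells had exactly 2 Ly6c2 UMIs, and just outside it 44 and 49 cells had 1 and met every other criterion. Plac8 was at 1546 and 1605 CPM in the cells just inside and at 862 and 1397 CPM in those just outside. The cells with 3 or more Ly6c2 UMIs numbered 253 and 528, and there Plac8 was at 3312 and 3021 CPM. Hp was likewise lower at the limit, at 45.6 and 92.0 CPM just inside it against 356 and 279 CPM in the cells with 3 or more. Chil3 did not follow the same order, and in Control it was at 1296 CPM just outside the limit and 817 CPM in the cells with 3 or more.

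The first comparison asked how common the cells were. Their share of Control barcodes was 6.01% (5.34% to 6.72%, Clopper-Pearson) and their share of IR barcodes 16.6% (15.3% to 17.9%). The ratio of the shares was 2.76. With Ccr2 and Chil3 UMIs in place of Ly6c2 in the rule, the shares came from 474 and 606 cells and the ratio was 1.75. With no C1q UMI allowed at all, they came from 146 and 395 cells and the ratio was 3.71. The direction was the same in each, while the size depended on which gene defined the cell. Ly6c2 itself was at 59.0 CPM in Control and 439 CPM in IR in the C1q macrophages, and its part in the share was not tested. Natural killer cells also carry Ly6c2, and the lymphocyte criterion took the Control cells from 349 to 281 and the IR cells from 775 to 574. Without it the ratio was 2.995. A share is relative to the other cells of a library: C1q macrophages made up 32.6% of Control and 10.6% of IR cells, so a rise of monocytes and a loss of macrophages cannot be told apart.

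Across all genes, 5138 had a mean of at least 20 CPM over both libraries and were compared as log2 ratios of CPM plus 10. Of these, 74 were at least 2-fold higher in IR (1.44% of the genes compared) and 6 were at least 2-fold lower (0.117%). The median of all log2 ratios was -0.06, and 2144 of the 5138 were above 0. Of the 74 genes, 18 were interferon-stimulated genes of a list of 46, and 9 were chemokines of a list of 20. The plot of both libraries' levels shows that the higher genes spread over all levels, from G0s2 to Cxcl2, while the few lower genes apart from Cxcl9 had low levels in IR.

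**Figure D1:**
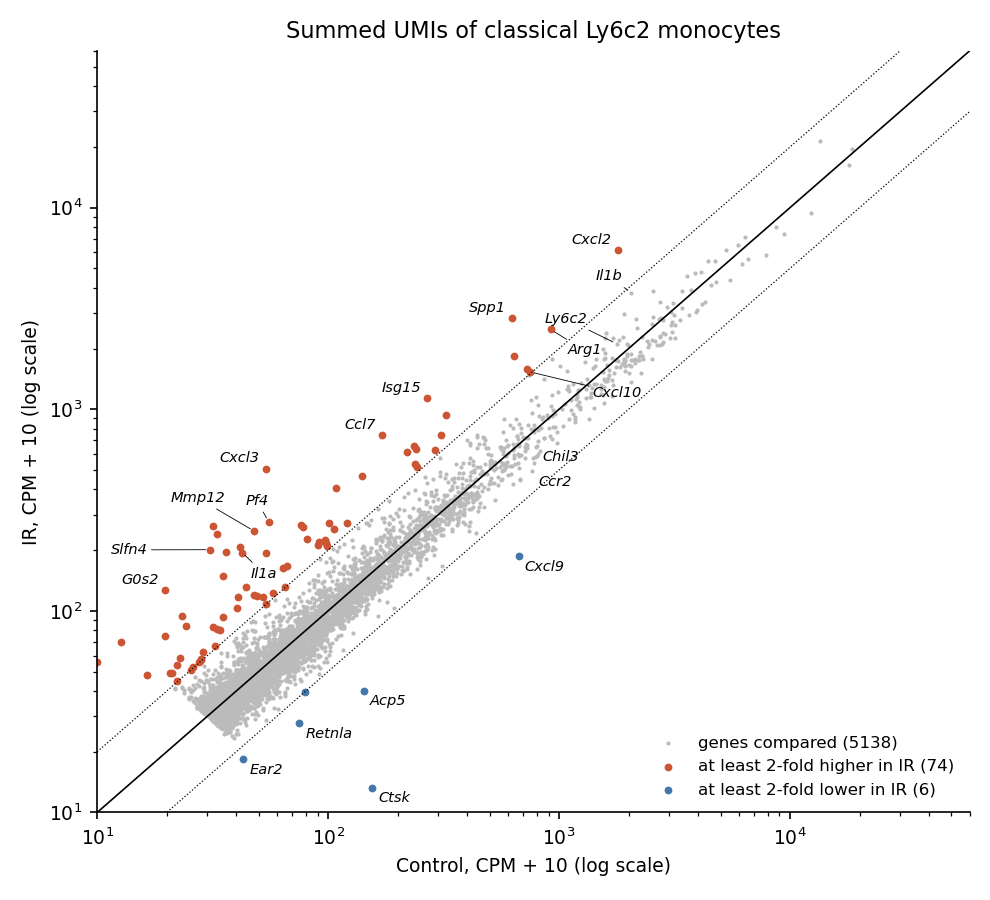
Each point is 1 of 5138 genes, with its CPM plus 10 in Control monocytes on the horizontal and in IR monocytes on the vertical log axis; the solid line is equality and the dotted lines mark 2-fold. The 74 higher genes (red) include Cxcl2 at 6125 CPM in IR, and Cxcl9 is the 1 lower gene (blue) above 500 CPM in Control.

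The promoters of 5 of these genes are printed. The higher genes Isg15, Ifit3, Cxcl10 and Cxcl3 were picked because they show the elements that the interferon and NF-κB background refers to. Cxcl9, a lower gene without such an element, is printed beside them. Of the 60 higher genes with a promoter, 13 held the ISRE letters given below. The direction of genes with an element therefore cannot be read from the printed ones. They are the 250 bases before the RefSeq start on GRCm38.p6, read 5′ to 3′ on the gene's strand. Capitals mark matches on either strand to the interferon-stimulated response element (ISRE), searched as GAAA, any 2 bases and GAAA, in Isg15, Ifit3 and Cxcl10, and to a κB element, searched as GGG, any 2 bases and TTTCC, in Cxcl3. The κB letters were chosen after the sequences were seen. Isg15 lies at chr4:156200819-156201068 (minus strand), Ifit3 at chr19:34583279-34583528 (plus strand), Cxcl10 at chr5:92348890-92349139 (minus strand), Cxcl9 at chr5:92328080-92328329 (minus strand) and Cxcl3 at chr5:90785851-90786100 (plus strand).
Isg15: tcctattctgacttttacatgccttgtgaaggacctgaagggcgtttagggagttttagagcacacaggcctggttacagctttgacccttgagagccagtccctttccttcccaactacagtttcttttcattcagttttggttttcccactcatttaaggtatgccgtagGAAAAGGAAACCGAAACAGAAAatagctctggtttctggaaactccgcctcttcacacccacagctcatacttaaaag
Ifit3: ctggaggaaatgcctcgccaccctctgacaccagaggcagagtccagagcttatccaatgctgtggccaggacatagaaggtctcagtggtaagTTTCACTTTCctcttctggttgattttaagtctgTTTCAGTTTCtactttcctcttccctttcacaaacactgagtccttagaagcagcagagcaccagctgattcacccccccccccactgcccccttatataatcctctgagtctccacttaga
Cxcl10: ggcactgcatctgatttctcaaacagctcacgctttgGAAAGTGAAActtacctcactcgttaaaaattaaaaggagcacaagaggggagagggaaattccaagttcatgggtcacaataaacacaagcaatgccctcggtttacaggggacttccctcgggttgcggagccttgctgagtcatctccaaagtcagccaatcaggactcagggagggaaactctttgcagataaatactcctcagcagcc
Cxcl9: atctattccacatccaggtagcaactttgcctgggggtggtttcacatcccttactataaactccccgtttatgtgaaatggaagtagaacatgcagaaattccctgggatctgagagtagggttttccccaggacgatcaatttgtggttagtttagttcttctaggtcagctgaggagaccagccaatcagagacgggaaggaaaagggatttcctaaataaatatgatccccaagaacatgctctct
Cxcl3: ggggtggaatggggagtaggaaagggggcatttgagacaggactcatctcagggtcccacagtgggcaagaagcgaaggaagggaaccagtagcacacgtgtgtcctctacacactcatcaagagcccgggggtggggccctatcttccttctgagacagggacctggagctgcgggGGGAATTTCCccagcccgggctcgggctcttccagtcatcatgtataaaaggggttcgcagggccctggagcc
Isg15 held 3 overlapping ISRE matches, from position -78 to -57 counted from the start, Ifit3 held 2, and Cxcl10 held 1. Cxcl9, the neighbour of Cxcl10 on chromosome 5, held neither element in these letters. Other forms of the κB element were not searched, so a promoter without these letters may still hold such a form.

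Over the 27025 genes with a promoter in the RefSeq table, chromosome 18 left out, 3.46% held the ISRE letters in these 250 bases. Among the 4141 of the compared genes with a promoter the share was 4.27%, and among the 60 of the 74 higher genes it was 21.7%, or 13 genes. Of these 13, 6 were on the interferon list (Isg15, Ifit1, Ifit3, Ifit1bl1, Ifi205 and Rsad2) and 7 were not, namely Cxcl10, Spp1, Mmp13 and the interferon-inducible Ifi206, Ifi213, Phf11a and Phf11b. The interferon list as a whole had the letters in 15 of 34 promoters. The genes of that list that did not reach 2-fold held them in 9 of 18 and those that did in 6 of 16, so within the list the letters did not mark the larger ratios. The κB letters were in 1.65% of all promoters and in 2.004% of those of the compared genes. They were in 6 of the 60 higher genes, Cxcl2 and Cxcl3 among them, and in 0 of the 34 interferon list promoters. Since the κB letters were chosen after the sequences were seen, the count among the higher genes cannot test for an excess there. A match to either element is a description of its letters and not a bound site.

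Interferon-stimulated genes were higher in IR monocytes as a group. Of 46 listed genes 44 passed the filter, and all 44 had a log2 ratio above 0, with a median of 0.86 beside -0.06 over all genes. With the cells chosen on Ccr2 and Chil3 in place of Ly6c2, 28 of the list were past 2-fold in place of 18. The largest were Slfn4, a Schlafen family gene, at 20.7 CPM in Control against 191 CPM in IR, and Ifit3, an antiviral RNA-binding protein, at 26.0 and 187 CPM. Isg15, a ubiquitin-like modifier, was at 258 CPM in Control (236 to 282) and 1122 CPM in IR (1094 to 1151), a log2 ratio of 2.08. It was detected in 146 Control cells and 458 IR cells, and the highest cell held 1.30% of the IR UMIs, so the ratio came from many cells. Ifit1 was at 31.4 and 197 CPM, Oasl1, an antagonist of Irf7 translation, at 24.99 and 139 CPM, and the antiviral enzyme Rsad2 at 98.3 and 396 CPM.

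Among regulators of the same response, Irf7 and Usp18 were past 2-fold and Stat2 and Irf9 were not. Irf7, the factor that amplifies the response, was at 230 CPM in Control and 624 CPM in IR, a log2 ratio of 1.40. Usp18, which removes Isg15 from proteins and dampens the receptor, was at 30.8 and 107 CPM. Stat2 and Irf9, parts of the complex that binds the ISRE, had log2 ratios of 0.61 and 0.44. Ifitm3, the most abundant of the listed genes, was at 4122 and 4810 CPM.

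The list of interferon-γ GTPases and targets, some of which also answer to type I interferon, had a median near that of all genes. Of 22 listed genes that passed the filter, 15 were above 0, beside 2144 of 5138 over all genes. The median log2 ratio was 0.10, beside -0.06 over all genes. In this list 2 genes were 2-fold higher and 1, Cxcl9, was 2-fold lower. Cxcl9, which draws T cells through Cxcr3 and is made mainly under interferon-γ, was at 658 CPM in Control (622 to 696) and 177 CPM in IR (166 to 188), a log2 ratio of -1.84. It was found in 103 of 281 Control cells and 125 of 565 IR cells, and without the highest cell of each library the log2 ratio was -1.86. Cxcl10, which uses the same receptor and answers to both interferons, was at 741 CPM in Control and 1521 CPM in IR, so the neighbouring genes differed in opposite directions. Gbp2, an interferon-induced GTPase, was at 463 and 401 CPM, and Irf1, the early interferon-γ factor, at 197 and 194 CPM. Cd274, which encodes PD-L1, was at 130 and 196 CPM.

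Antigen presentation genes followed their class. Of 21 class I genes 1 was 2-fold higher, H2-Q6, at 47.8 and 113 CPM, and the median log2 ratio was 0.10. B2m, the light chain of all class I molecules, was at 3554 CPM in Control and 4568 CPM in IR. The median of 11 class II genes was -0.44, with 3 above 0 and none past 2-fold. H2-Ab1, a class II chain, was at 2243 and 1494 CPM, and Cd74, the invariant chain that guides class II molecules, at 7856 and 5794 CPM. Class II was uneven among the cells, which is taken up with the ranges below.

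Chemokines that attract myeloid cells were among the largest differences. Of 18 listed chemokines that passed the filter 9 were 2-fold higher and 1, Cxcl9, was 2-fold lower, with a median log2 ratio of 0.81, or 0.47 with the cells chosen on Ccr2 and Chil3 in place of Ly6c2. The neutrophil attractant Cxcl3 was at 43.6 CPM in Control (34.7 to 54.1) and 498 CPM in IR (479 to 517), and was found in 10 and 157 cells. In Control 1 cell held 72.0% of its UMIs, and without the highest cell of each library the log2 ratio was 4.42 in place of 3.24. Cxcl2, which uses the same receptor, was at 1788 CPM and 6125 CPM, a log2 ratio of 1.77. The monocyte attractants Ccl7, Ccl2 and Ccl12 stood at 161, 630 and 90.4 CPM in Control and at 734, 1820 and 263 CPM in IR. Ccl3 and Ccl4, the macrophage inflammatory proteins, were at 131 and 313 CPM in Control and 455 and 926 CPM in IR. Ccl5 was at 381 and 349 CPM. The ligands of Ccr2 were thus higher while Ccr2 itself was lower, and Ccr2 is a gene of the rule.

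In the list of inflammatory cytokines 6 of 15 were past 2-fold, with a median log2 ratio of 0.92. This list shares Cxcl2 and Cxcl3 with the chemokine list, and both are among the 6. Il1a was at 32.4 CPM in Control and 185 CPM in IR, Tnf at 67.5 and 250 CPM, and Il6 at 17.5 and 45.7 CPM. Il6 fell below 2-fold without the highest cell of each library, at a log2 ratio of 0.91. Il1b was at 2041 and 3766 CPM, a log2 ratio of 0.88, and its natural antagonist Il1rn was at 232 and 504 CPM. None of 26 NF-κB subunits, inhibitors and targets was past 2-fold, their median was 0.06, and their highest log2 ratio was 0.99. This list does not hold the chemokines and cytokines past 2-fold that are given above. The subunit genes Rela and Nfkb1 had log2 ratios of -0.08 and 0.02, and the feedback inhibitor Nfkbia had 0.92, at 926 and 1758 CPM. Of 12 genes of the m6A machinery and its YTHDF2-linked set, the subject of the study, none was past 2-fold, the median was 0.00, and Ythdf2 was at 48.9 CPM in Control and 40.4 CPM in IR.

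The plot of 12 gene lists places these groups side by side. The interferon list lies wholly to the right of 0, whereas chemokines span from Cxcl9 on the left to Cxcl3 on the right.

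**Figure D2:**
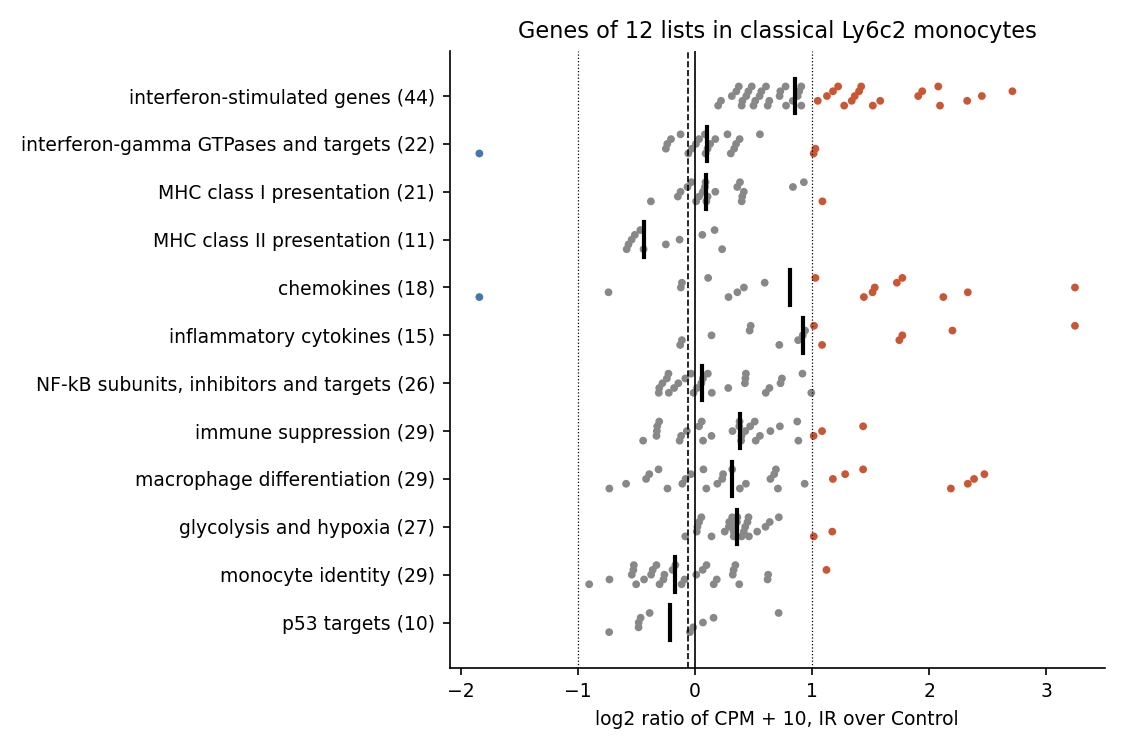
Each point is a listed gene that passed the filter, with its log2 ratio of CPM plus 10, IR over Control, on the horizontal axis; the black bar is the list's median, the dashed line the median of all genes, the dotted lines mark 2-fold, and the number in brackets counts the genes. All 44 interferon-stimulated genes lie above 0, and class II genes lie mostly below it.

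Some genes of suppression, tissue repair and macrophage differentiation were also among the 74. Arg1, the arginase that depletes arginine needed by T cells, was at 910 CPM in Control against 2477 CPM in IR, and Nos2, the inducible nitric oxide synthase, at 43.6 and 98.2 CPM. Of 29 suppression genes 3 were past 2-fold, with a median of 0.38. Spp1, which encodes osteopontin, was at 615 CPM in Control (580 to 652) and 2832 CPM in IR (2787 to 2877), a log2 ratio of 2.18. Pf4, the chemokine of platelets and some macrophages, was at 45.2 and 267 CPM, and Mmp12, the macrophage elastase, at 37.7 and 239 CPM. In IR 1 cell held 20.4% of the Mmp12 UMIs, and the log2 ratio without the highest cells was 2.26 in place of 2.38. With the cells chosen on Ccr2 and Chil3 in place of Ly6c2, the log2 ratios were -1.32 for Mmp12 and -0.02 for Pf4, so the direction of both depended on the rule, and that of Spp1 was 0.65, below 2-fold. With a minimum of 1 Ly6c2 UMI that of Mmp12 was 0.02. Of 29 genes of macrophage differentiation 7 were past 2-fold, with a median of 0.32 that turned to -0.024 with the cells chosen on Ccr2 and Chil3. Apoe and Mrc1, which mark resident macrophages, had ratios of -0.59 and -0.31. Fcgr1, the high-affinity receptor for IgG, was at 281 and 615 CPM. Of 27 glycolysis and hypoxia genes 26 were above 0, with a median of 0.36, or 0.085 with the cells chosen on Ccr2 and Chil3. Hilpda, a hypoxia-induced lipid droplet protein, was at 111 and 263 CPM.

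Other programs were close to the background. Of 29 monocyte identity genes 1 was past 2-fold, Ly6a, also known as Sca-1, at 719 CPM in Control against 1577 CPM in IR, and the median was -0.17, or 0.22 with the cells chosen on Ccr2 and Chil3. Of 10 p53 targets none was past 2-fold, the median was -0.21, and the damage-induced Cdkn1a was at 674 and 754 CPM. Of 22 lipid handling genes 9 were above 0, and the median was -0.18. The fatty acid transporter Cd36 was the 1 gene of that list past 2-fold, at 12.2 and 44.1 CPM, and the lowest log2 ratio was -0.92, for the sterol synthesis enzyme Cyp51. Among transcription factors the nuclear receptors Nr4a2 and Nr4a3 had ratios of -0.85 and -0.79 and Klf4, a factor of monocyte development, had -0.60.

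The list of 6 lower genes did not describe the monocytes in general. It held Ctsk, Cxcl9, Acp5, Retnla, Ear2 and Cnn3. Ctsk, the osteoclast cathepsin, had 273 UMIs in Control, of which 268 lay in 1 cell, and 18 UMIs in IR. The same Control barcode, with 26985 UMIs, held 222 of the 250 UMIs of Acp5, the tartrate-resistant phosphatase, and 20 of 21 UMIs of Atp6v0d2, both also known from osteoclasts. It had 2 Ly6c2 UMIs, 0 Chil3 UMIs and 41 Lyz2 UMIs, so it stood at the limit of the rule. Another Control barcode, with 38799 UMIs, held 105 of the 122 UMIs of Retnla, an alternative activation gene. Without the highest cell of each library, 1 of the 6 genes, Cxcl9, was still past 2-fold, and Acp5 was higher in IR at a log2 ratio of 0.61. It was found in 8.54% of Control cells and 19.1% of IR cells. Of the 74 higher genes, 73 were still past 2-fold on the same terms.

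Genes of other cell types were looked for among the monocytes. T cell genes summed to 56.9 CPM in Control against 51.9 CPM in IR, and fibroblast genes to 22.9 and 13.2 CPM. Dendritic cell genes summed to 3388 and 3606 CPM, of which Cst3 alone made up 2811 and 2763 CPM. Macrophage genes, with the C1q genes that the rule limits, summed to 1050 and 1072 CPM, and B and plasma cell genes to 119 and 52.1 CPM. None of the genes of these last 3 lists that passed the filter was past 2-fold. Natural killer cell genes summed to 207 CPM in Control and 323 CPM in IR, with none of the 3 that passed the filter past 2-fold. The granzyme Gzma was at 94.6 and 167 CPM, and Ncr1, which the rule bars, had 0 UMIs. Mast cell and basophil genes summed to 15.4 and 74.8 CPM, nearly all of it Hdc, which makes histamine, at 14.4 and 74.0 CPM, while Cpa3, Fcer1a and Ms4a2 had 0 UMIs in both libraries. The part of any of these cell types in the results was not tested. The 14 neutrophil genes summed to 331 CPM in Control and 1119 CPM in IR, with 4 of the 7 that passed the filter past 2-fold. S100a8 and S100a9, which the rule limits to 2% of a cell, made up 22.9 and 21.8 CPM in Control and 230 and 254 CPM in IR. G0s2, a lipolysis inhibitor that is abundant in neutrophils, was at 9.57 and 117 CPM, but in only 6 Control and 38 IR cells, and Cxcr2, the neutrophil chemokine receptor, had 1 and 35 UMIs and Retnlg 3 and 41 UMIs. The granule genes Camp, Ngp and Ltf had at most 5 UMIs. Without the 47 Control and 140 IR cells that held a UMI of G0s2, Retnlg, Cxcr2, Mmp8, Ngp, Camp, Ltf or Lcn2, 69 genes were 2-fold higher, 61 of them among the 74, and 20 of the interferon list. The part of neutrophil RNA in the values of S100a8, S100a9, G0s2, Cxcr2 and Retnlg was not tested.

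To see how the monocytes varied among themselves, each cell was thinned to 2000 UMIs, which left 271 Control and 563 IR cells. The interferon list summed to a median of 21 UMIs per Control cell (10th to 90th percentile 5 to 42) and 32 UMIs per IR cell (13 to 68). Of the IR cells 72.6% exceeded the Control median and 29.8% exceeded the Control 90th percentile. The distributions overlapped and moved as a whole, as the cumulative plot shows. Arg1 behaved otherwise: 70.8% of Control cells and 45.1% of IR cells had no UMI of it, and the 90th percentile was 6 UMIs in Control and 15 UMIs in IR. In natural killer cells, Ncr1-positive cells that should lack Arg1, 1.45% of Control and 1.05% of IR cells reached 3 UMIs at the same thinned depth, from unthinned medians of 8178 and 10447 UMIs.

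**Figure D3:**
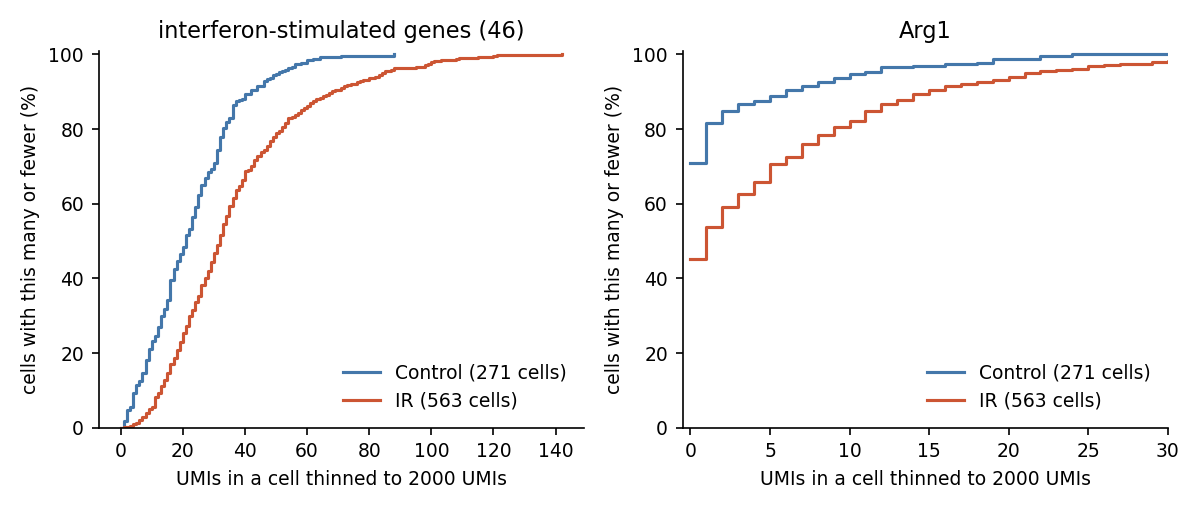
The horizontal axis gives the UMIs of a cell thinned to 2000 UMIs, and the vertical axis the percent of cells with that many or fewer, for the 46 interferon-stimulated genes (left) and Arg1 (right, cut at 30 UMIs). The IR curve (red, 563 cells) lies to the right of the Control curve (blue, 271 cells) in both, with medians of 32 and 21 UMIs on the left.

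Cells were then divided by Arg1 (high, at least 3 UMIs) and by H2-Aa, H2-Ab1, H2-Eb1 and Cd74 together (MHC class II high, at least 10 UMIs), at limits set after the values were seen. These are ranges and not cell types: 5 Control and 20 IR cells had exactly 3 Arg1 UMIs, and 15 and 62 cells had 7 to 13 class II UMIs. Cells high for Arg1 made up 15.1% of Control monocytes (11.1% to 20.0%) and 40.9% of IR monocytes (36.8% to 45.0%). In these cells Ly6c2, a gene of the rule, was at 764 CPM in Control and 1910 CPM in IR. The part of the Ly6c2 limit in the shares was not tested, and they were not computed with the cells chosen on Ccr2 and Chil3. Most of the difference lay in cells with high Arg1 and low class II, which were 8 of 271 cells in Control (2.95%) and 140 of 563 in IR (24.9%). Cells low for both were 50.6% and 36.2%, and cells with low Arg1 and high class II were 34.3% and 22.9%.

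The ranges carried different genes in both libraries. Cells high for Arg1 had more Spp1, at 1250 CPM against 449 CPM in the other cells of Control and 5224 against 1024 CPM in IR. They had more Pdpn, which encodes podoplanin, at 118 against 24.4 CPM in Control and 357 against 53.04 CPM in IR. They had less Hp, at 84.8 against 382 CPM and 80.7 against 411 CPM. Cells high for class II had more Itgax, the integrin of dendritic cells, and more Ccl17, a chemokine of antigen-presenting cells, than those low for it, with Ccl17 at 70.4 against 2.33 CPM in Control and 117 against 5.60 CPM in IR. They had less Chil3, at 299 against 1372 CPM and 257 against 953 CPM. Of the 4 ranges, Hp was highest in the cells low for both, at 619 CPM in Control and 639 CPM in IR. Because these ranges and genes were read from the same cells, the contrasts are given with no test.

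Within each range the interferon median was above 0, as it was over all cells, while its size varied. In the cells low for both, 137 in Control and 204 in IR, all 44 interferon genes were above 0 with a median of 0.81, and Isg15 was at 266 and 1194 CPM. In the cells with low Arg1 and high class II the median was 0.83, and in those high for both it was 0.99. Cxcl9 was lower in IR in each of these, with log2 ratios of -1.61, -1.82 and -1.74. In the cells with high Arg1 and low class II, with 8 Control cells, the interferon median was 2.77. Cxcl9 was level there, at a log2 ratio of 0.03. Over all cells high for Arg1, 41 in Control and 230 in IR, the interferon median was 1.25 and the log2 ratio of Cxcl9 was -2.14. The glycolysis and hypoxia list, at 0.36 over all cells, had medians of 0.06 in the cells low for both, 0.38 in those with low Arg1 and high class II and 0.25 in those high for both. Pf4 was at 27.7 and 33.6 CPM in the cells low for both and at 467 and 732 CPM in those with high Arg1 and low class II. The latter rest on 8 Control cells, in which Isg15 had 0 CPM. Pf4 was at 19.0 and 54.2 CPM in the cells with low Arg1 and high class II and at 61.6 and 354 CPM in those high for both. Apoe was lower in IR in the cells low for both, at 460 and 159 CPM, and level in those high for both, at 573 and 567 CPM. With the IR cells weighted so that cells high for Arg1 made up the Control share of UMIs, 20.8% in place of 43.1%, 54 genes were 2-fold higher in IR, 51 of them among the 74, and 19 of the interferon list. The log2 ratio of Pf4 was then 1.54 in place of 2.33 and that of Isg15 was 2.06 in place of 2.08.

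**Figure D4:**
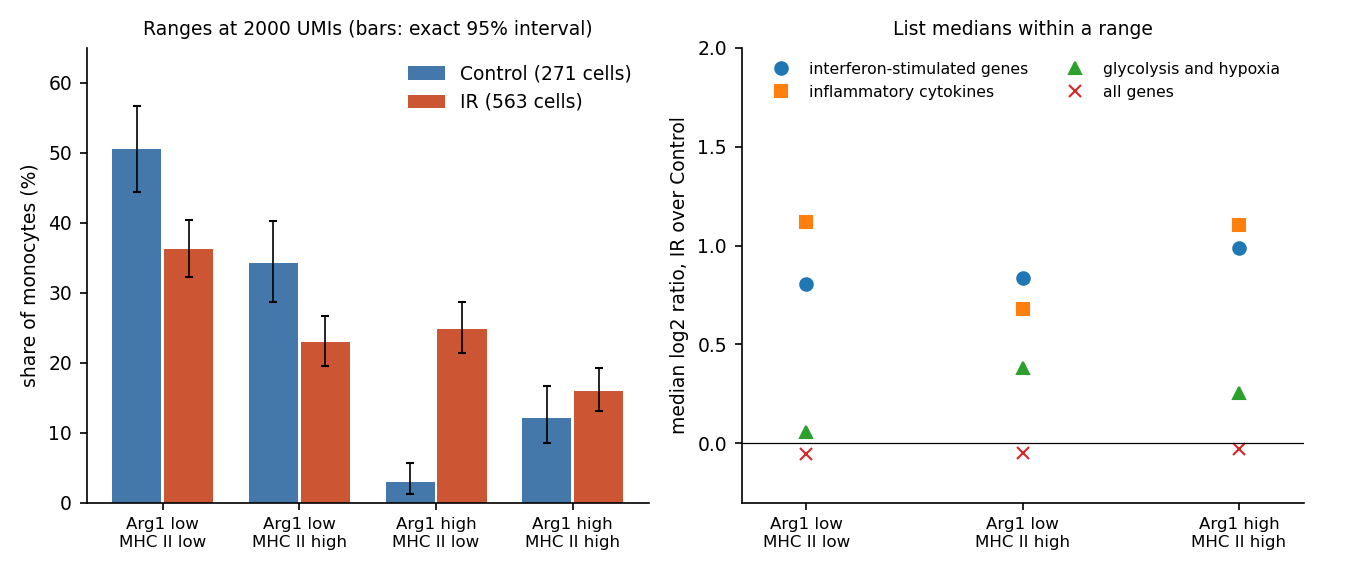
Left, the share of monocytes (%) in 4 ranges of Arg1 and MHC class II UMIs at 2000 UMIs per cell, Control blue and IR red, with exact binomial 95% intervals; right, the median log2 ratio, IR over Control, of 3 gene lists and all genes within 3 of the ranges. The range with high Arg1 and low class II holds 2.95% of Control and 24.9% of IR cells and is left out on the right because it has 8 Control cells, while the interferon medians stay between 0.81 and 0.99.

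The same comparison in C1q macrophages and nonclassical monocytes placed these values among the cells most like them. Of the 74 higher genes 69 passed the filter in C1q macrophages and 44 of these were past 2-fold there, and all 69 had the same sign. In nonclassical monocytes, where 103 genes were 2-fold higher (2.03%) and 86 were 2-fold lower (1.7%), 61 passed, 33 were past 2-fold and 60 had the same sign. None of the 74 was past 2-fold in the opposite direction in either. In macrophages 90 genes were 2-fold higher (1.68%) and 37 were 2-fold lower (0.692%), against 74 and 6 in the monocytes, and these cells came from the same libraries, so the agreement of signs has no independent samples behind it.

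The interferon genes stood at a higher level in monocytes than in macrophages. In Control the list summed to 10322 CPM in monocytes and 3438 CPM in macrophages, a ratio of 3.003, and 45 of the 46 genes were higher in monocytes. In IR it summed to 16937 and 10502 CPM, a ratio of 1.61, with 43 of 46 higher in monocytes. The macrophages thus had the larger ratios, with a median of 1.498 against 0.86, and Irf7 had a log2 ratio of 2.87 there against 1.40. The chemokine list had a median of 0.81 in monocytes and 0.59 in macrophages, and the secreted matrix and repair list 0.33 and 0.27. Single genes differed more, and the log2 ratio was 1.77 in monocytes and 0.69 in macrophages for Cxcl2, 2.12 and 0.74 for Ccl7, and 1.44 and 0.45 for Arg1. Arg1 was already at 2885 CPM in Control macrophages and at 3944 CPM in IR macrophages. Cxcl9 was lower in all 3 populations, with log2 ratios of -1.84, -1.40 and -1.84 in the order of the plot. The difference of differences was not tested, since each rests on 1 library per group.

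**Figure D5:**
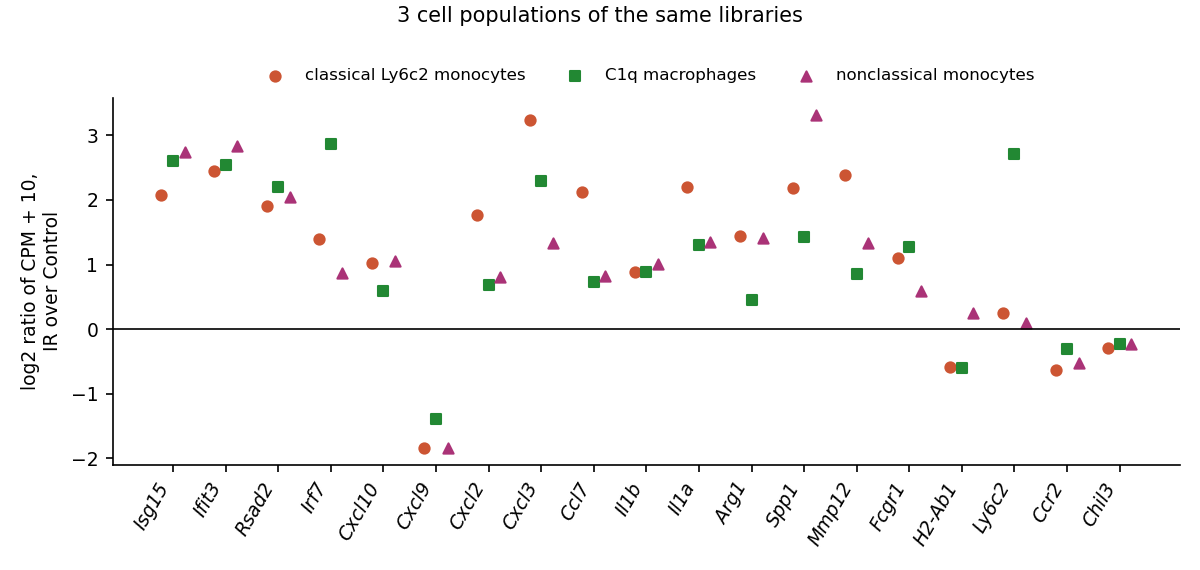
Log2 ratio of CPM plus 10, IR over Control (vertical axis), of 19 genes in classical Ly6c2 monocytes (circles), C1q macrophages (squares) and nonclassical monocytes (triangles) of the same libraries. Cxcl9 lies below -1 in all 3. Ly6c2 lies at 0.25 in monocytes, where the rule sets a minimum for it, and at 2.70 in macrophages.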

How the data were processed

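The files deposited by the authors are 1 unfiltered matrix of raw UMI counts for each library, from 10x Chromium droplets of CD45+ cells. The submitters' notes name Cell Ranger 6.0.1 and mm10, the matrix headers Cell Ranger 4. Free RNA and empty droplets were therefore still in the files. The members, gene lists and limits were chosen with earlier results of these data known. Monocytes were selected per library, their UMIs summed and scaled to CPM over 32285 genes, and compared as log2 ratios of CPM plus 10 among genes with a mean of at least 20 CPM. A gene counted as different at 2-fold or more. No test was run, as each group had 1 library; edgeR 4.0.16 (TMM) and DESeq2 1.42.0 served only for alternative scalings. Intervals are exact 95% Poisson or Clopper-Pearson intervals and cover counting error only. The Control library held 48593879 UMIs and the IR library 42406461. Named genes were the 12 largest log2 ratios in each direction among genes at 2-fold or more with at least 100 CPM in 1 library, leaving out mitochondrial, sex-linked, rule and clone-named genes (3 qualified as lower), with members of the lists; genes of the Arg1 and class II ranges, promoters and single-cell counts were chosen after their values were seen. Doublets were not removed in the main selection: the automatic threshold of Scrublet (scanpy 1.11.5) marked 0 and 1 barcodes and was taken as not having worked, and removing the 6% highest scores was an alternative. Code was tested on simulated data with known answers.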

Additional observations from a re-analysis of the deposited data

Results flagged for a closer look

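Barcodes with 10 to 100 UMIs, which hold free RNA and enter no comparison of cells, also differed between the libraries, and the difference was not tested. Ly6c2 made up 729 CPM of their UMIs in IR (699 to 759) and 326 CPM in Control (310 to 344). The interferon-stimulated genes made up 9881 CPM in IR and 4120 CPM in Control. Hp, Vcan, Chil3 and F13a1 together made up 297 CPM in IR (278 to 317) and 237 CPM in Control (222 to 252). At the share of free RNA set by T cell and fibroblast genes, 6.41% of monocyte UMIs in Control and 3.098% in IR, such RNA would give a median of 2.49% and 1.53% of the UMIs of an interferon gene.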

How the results depend on the processing

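No paired analysis was possible because each group had a single library, and no library could be left out. The share ratio of 2.76 moved beyond its interval in 2 of 13 alternatives, to 1.75 with Ccr2 and Chil3 in place of Ly6c2 and to 3.71 with no C1q UMI. The count of 74 higher genes went to 36 at a pseudocount of 50 CPM and 41 at a mean of at least 100 CPM, where the 18 interferon genes went to 9 and 10, and these went to 28 with Ccr2 and Chil3. The count of 6 lower genes was the least stable. It went to 16 with Ccr2 and Chil3, 10 with the rule applied to cells thinned to 3000 UMIs, 3 without the 6% highest Scrublet scores, 12 at a pseudocount of 1 CPM, 3 at a pseudocount of 50 CPM, 10 with no filter on low values, 1 at a mean of at least 100 CPM and 3 with the mean of per-cell CPM. In alternatives added after the values were seen it went to 1 without the highest cell of each library for the gene, 22 with members thinned to 2000 UMIs and 3 without members over 15000 UMIs. Of these, the pseudocount and filter act by construction on low genes, and the cause of the others was not tested, except that 1 Control cell held most Ctsk and Acp5 UMIs. Ctsk turned to 0.11 and Acp5 to 0.59 at a Ly6c2 minimum of 4 UMIs, and Acp5 to 1.05 with no C1q UMI, 0.48 with thinning to 3000 UMIs, 0.61 without the highest cells and 0.81 without members over 15000 UMIs. With Ccr2 and Chil3 in place of Ly6c2, Mmp12 turned to -1.32, Pf4 to -0.023, the macrophage differentiation median to -0.024 and the monocyte identity median to 0.22. Over all alternatives the interferon median ran from 0.60 to 1.18 and the class II median from -0.62 to -0.32. Depth limits genes under about 20 CPM, which in Control rest on few UMIs.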

Other observations

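Within cells thinned to 2000 UMIs, cells with no C1q UMI made up 76.8% of Control monocytes (71.3% to 81.6%) and 84.9% of IR monocytes (81.7% to 87.8%). Cells with 3 or more C1q UMIs made up 3.69% and 6.93%. In the cells with no C1q UMI at this depth the interferon median was 0.82, 17 of 44 genes were 2-fold higher, and Arg1 was at 897 and 2341 CPM. The rule itself limits C1q UMIs, and some of these cells held C1q UMIs at full depth. The part of macrophages in either pattern was not tested. Ly6c1, the close relative of Ly6c2, was at 2.13 CPM in Control monocytes and 3.66 CPM in IR monocytes, so reads of the pair were counted almost wholly on Ly6c2.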
